A study of Mus musculus with 19 samples.

Results

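The 8 genes described here, Acat2, Hmgcs1, Mvk, Pmvk, Mvd, Idi1, Fdps and Ggps1, encode enzymes of the mevalonate pathway. All but Ggps1 act on the way to farnesyl pyrophosphate, the last intermediate before squalene, and Ggps1 acts on farnesyl pyrophosphate itself. They are not every enzyme of the route. They were taken by symbol as a list of cholesterol synthesis steps ahead of squalene. No cut on their measured levels was made, but earlier results of these data were known when the list was chosen. All 8 were found among the 49315 genes counted. The data are bulk RNA sequencing of the livers of 19 female mice, each with a library of its own, in 4 groups by genotype and diet. Gramd1c-/- mice ate a diet with high (0.2% wt/wt, n = 5) or low cholesterol (0.02% wt/wt, n = 4), and Gramd1c+/+ mice ate the same diets (n = 5 on each). The diets began at 8 weeks of age and lasted 4 weeks. All mice were on the C57Bl6/N background, the mutant strain was C57BL/6N-Atm1Brd Gramd1ctm1a(KOMP)Wtsi/JMmucd, and both genotypes were littermates from heterozygous parents. Gramd1c encodes Aster-C, a protein of the endoplasmic reticulum that binds cholesterol, and the targeted allele (tm1a) is carried in every cell, so it does not single out hepatocytes. The comparisons ask whether dietary cholesterol and loss of Aster-C alter transcripts of this pathway.

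The pathway starts from acetyl-CoA, condenses it to HMG-CoA, and turns mevalonate by phosphorylation and decarboxylation into isopentenyl pyrophosphate, the isoprene unit. Isoprene units are joined to farnesyl pyrophosphate, which either enters sterol synthesis or is used for protein prenylation, dolichol and ubiquinone. In liver, transcription of many of these genes is driven by SREBP2, a membrane-bound factor that is released when the endoplasmic reticulum holds little cholesterol and is retained when cholesterol is plentiful. SREBP2 binds sterol regulatory elements, commonly with NF-Y, which reads the CCAAT box, or Sp1, which reads GC-rich boxes.

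The libraries held 27149972 to 34669648 counts. The lowest count of a member in any mouse was 42, for Mvd. TPM, the unit of level used below, divides counts by gene length and scales each library to the same sum, and it was computed from the counts and lengths of the same files. Gramd1c was at 1.07 to 3.61 TPM in the 9 Gramd1c-/- mice, against 9.56 to 16.0 TPM in the 10 Gramd1c+/+ mice. The labels name both liver and gonadal adipose tissue. Transcripts of 6 hepatocyte markers summed to 76576 to 126769 TPM in every mouse and those of 6 adipocyte markers to at most 8.19 TPM in 18 mice. In Gramd1c+/+ replicate 2 on low cholesterol, however, adipocyte markers summed to 138 TPM and 10 adrenal cortex markers to 679 TPM. The adrenal markers summed to 36.7 to 54.5 TPM in the other 18, mostly from Mrap (33.2 to 51.4 TPM). Mrap was at 50.2 TPM in that replicate 2, where 9 of the 10 markers were at their highest. Gramd1c-/- replicate 5 on high cholesterol stood apart from all other mice on the first principal component. Some diet, genotype, interaction and covariation values are also given without these 2 libraries. Values not given this way may move as well.

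The 8 genes lie on 5 chromosomes of GRCm38, and of the chromosomes only 3 and 13 carry more than 1 of them. Acat2 (ENSMUSG00000023832) spans chr17:12942890-12960747 on the minus strand, Hmgcs1 (ENSMUSG00000093930) chr13:119690462-119708086 on the plus strand, and Mvk (ENSMUSG00000041939) chr5:114444269-114460591 on the plus strand. Pmvk (ENSMUSG00000027952) spans chr3:89454541-89469013 on the plus strand, Mvd (ENSMUSG00000006517) chr8:122433601-122443422 on the minus strand, and Idi1 (ENSMUSG00000058258) chr13:8885501-8892451 on the plus strand. Fdps (ENSMUSG00000059743) spans chr3:89093588-89101959 and Ggps1 (ENSMUSG00000021302) chr13:14052449-14063401, both on the minus strand.

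RefSeq promoter windows on GRCm38.p6, 250 bases before to 50 bases after the annotated start, were found for 7 of the 8 genes, with 2 windows for Pmvk. The windows of 3 genes with a diet call and of Ggps1, which had none, are shown to set their boxes side by side. The 3 were not picked by size of effect. Mvd, whose window is not shown, had a larger diet effect than Hmgcs1 and Mvk. Each reads 5′ to 3′ along the gene, with motif matches on either strand in capitals: TCACNCCAC (the core of a sterol regulatory element), CCAAT or its reverse ATTGG, and GGGCGG (an Sp1 box) or its reverse CCGCCC. The Hmgcs1 window is chr13:119690101-119690400 (plus strand), that of Mvk chr5:114444019-114444318 (plus), that of Idi1 chr13:8885356-8885655 (plus) and that of Ggps1 chr13:14063439-14063738 (minus).
Hmgcs1: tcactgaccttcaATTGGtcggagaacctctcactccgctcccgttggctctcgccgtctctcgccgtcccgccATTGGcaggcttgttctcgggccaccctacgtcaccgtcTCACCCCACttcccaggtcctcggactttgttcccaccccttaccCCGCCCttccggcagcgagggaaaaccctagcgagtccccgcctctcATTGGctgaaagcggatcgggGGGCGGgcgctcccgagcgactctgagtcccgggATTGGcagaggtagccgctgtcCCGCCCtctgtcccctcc
Mvk: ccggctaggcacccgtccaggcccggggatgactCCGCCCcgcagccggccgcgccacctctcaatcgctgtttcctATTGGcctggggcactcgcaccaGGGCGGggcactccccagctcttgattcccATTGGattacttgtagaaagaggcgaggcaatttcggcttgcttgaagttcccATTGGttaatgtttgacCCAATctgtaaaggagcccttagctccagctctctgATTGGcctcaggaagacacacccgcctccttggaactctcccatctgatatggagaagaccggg
Idi1: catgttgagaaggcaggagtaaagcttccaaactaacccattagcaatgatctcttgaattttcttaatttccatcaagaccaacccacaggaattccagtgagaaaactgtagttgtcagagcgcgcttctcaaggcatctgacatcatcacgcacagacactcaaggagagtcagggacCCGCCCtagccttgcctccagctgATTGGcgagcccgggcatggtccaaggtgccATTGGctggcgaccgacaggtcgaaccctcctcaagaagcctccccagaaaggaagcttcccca
Ggps1: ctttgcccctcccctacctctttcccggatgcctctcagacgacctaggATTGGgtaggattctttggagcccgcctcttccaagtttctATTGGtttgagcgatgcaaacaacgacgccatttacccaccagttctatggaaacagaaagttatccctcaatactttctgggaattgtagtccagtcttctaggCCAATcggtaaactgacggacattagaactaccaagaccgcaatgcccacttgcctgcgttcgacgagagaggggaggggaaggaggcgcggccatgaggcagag

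The core TCACNCCAC was found in the Hmgcs1 window alone of the 7 genes, as TCACCCCAC at position -137 from the start. It occurs in 1.24% of all 32851 windows. CCAAT boxes were present in 6 of the 7 genes, against 37.4% of all windows. There were 5 in Mvk, 4 in Hmgcs1, 3 in Ggps1, 2 each in Mvd and Idi1, 1 in a window of Pmvk and none in Acat2. Windows with 3 or more make up 3.37% of all, and Hmgcs1, Mvk and Ggps1 belonged to them. An Sp1 box stood in the windows of Acat2, Hmgcs1, Mvk, Mvd and Idi1 (35.7% of all windows), and the E-box CACGTG in none of the 7 genes (7.15%). These matches are letters in a window and say nothing of binding. The start in the files lies 111 bases into the gene from the RefSeq start for Hmgcs1 and 87 bases into the gene for Ggps1, and at -105 for Idi1 and -22 for Acat2, ahead of the RefSeq start. The second window of Pmvk belongs to a start inside the gene, with the start in the files at -5030 from it.

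Transcripts of 7 of the 8 genes fell on high cholesterol in both genotypes, and Ggps1 was the exception. Calls are those of edgeR with Benjamini-Hochberg adjusted p-values under 0.05 over the 15016 genes tested. In Gramd1c-/- mice 7 of 8 were called lower and 0 higher on high against low cholesterol, where 0.293% of all genes were called lower. In Gramd1c+/+ mice the same 7 were called lower, against 0.34% of all genes. Averaged over genotypes they were again called, against 0.852%. Median log2 fold changes of the 8 genes were -2.28 in Gramd1c-/- and -2.10 in Gramd1c+/+ mice, while those of all genes were 0.02 and 0.01. In bulk tissue, fewer cells of a type and less RNA per cell cannot be told apart. In Gramd1c-/- mice summed hepatocyte markers were at 76576 to 101362 TPM on high and 108134 to 125266 TPM on low cholesterol, without overlap. The ranges in Gramd1c+/+ mice, 82476 to 108262 TPM on high and 93369 to 126769 TPM on low cholesterol, overlapped. The part of these markers in the result was not tested. With both libraries that stood apart left out, the same 7 genes were called lower, with log2 fold changes between -1.19 and -3.98 in Gramd1c-/- and between -0.97 and -4.09 in Gramd1c+/+ mice.

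**Figure D1:**
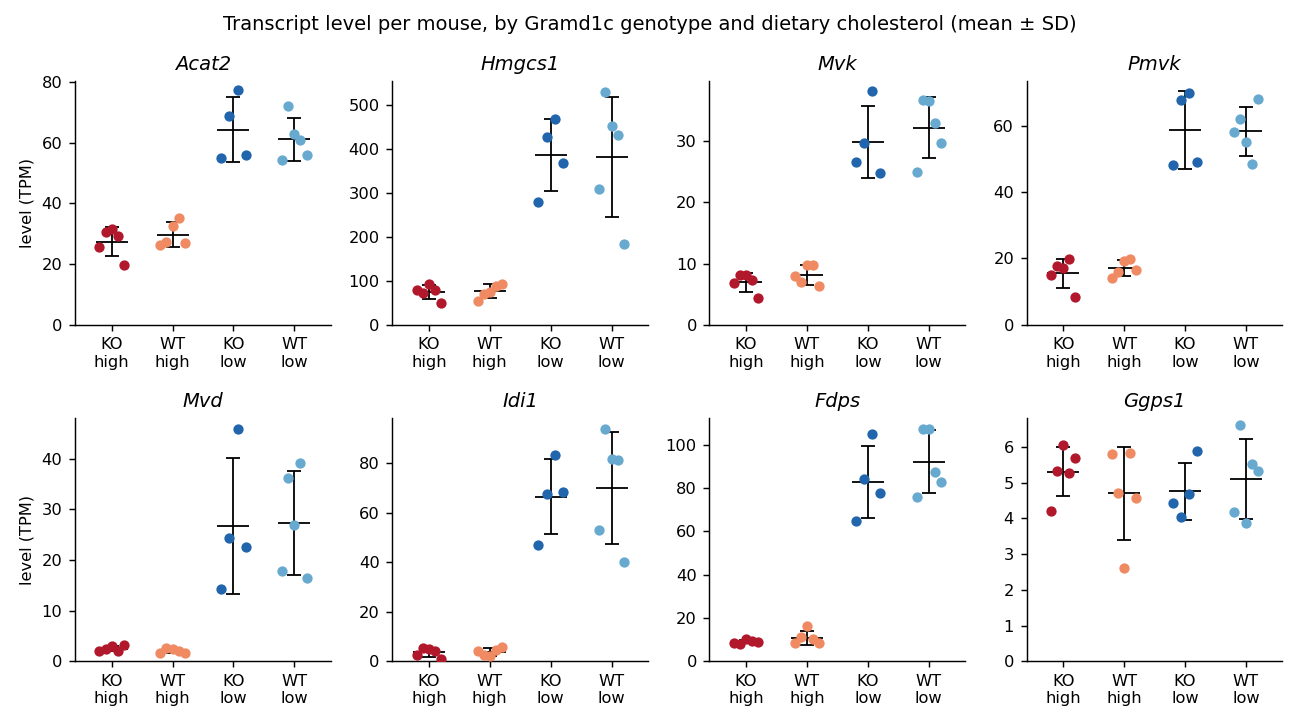
Level of each of the 8 transcripts (TPM, vertical axis from 0) in the liver of each mouse, by genotype (KO, Gramd1c-/-; WT, Gramd1c+/+) and dietary cholesterol. Points are mice, and bars are the mean ± SD (n = 5, 5, 4 and 5 from left to right). Every mouse on high cholesterol lies below every mouse on low cholesterol in 7 panels. How many of all genes part the diets in this way was not counted. In Ggps1 the 19 mice share 1 range of 2.61 to 6.61 TPM.

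Acat2 encodes the cytosolic thiolase that joins acetyl-CoA units to acetoacetyl-CoA, the entry step. In Gramd1c-/- mice it was at 25.7, 30.5, 31.6, 29.2 and 19.8 TPM on high cholesterol, against 54.9, 68.9, 77.5 and 56.0 TPM on low cholesterol. In Gramd1c+/+ mice the values were 26.4, 27.2, 32.7, 35.2 and 27.1 TPM on high, against 54.2, 72.2, 62.8, 60.8 and 56.0 TPM on low cholesterol. The diets did not overlap in either genotype, although Acat2 moved least of the 7. Its log2 fold change was -1.27 (SE 0.14, edgeR adjusted p = 1.40e-05) in Gramd1c-/- and -0.99 (SE 0.13, adjusted p = 2.20e-04) in Gramd1c+/+ mice. Acat3, a related thiolase gene with a transcript 97.7% identical to Acat2 over 1477 bases, was more abundant. It averaged 235 TPM on high and 234 TPM on low cholesterol in Gramd1c-/- mice, and 239 TPM on high and 249 TPM on low cholesterol in Gramd1c+/+ mice. Its diet effect averaged over genotypes was -0.02 on the log2 scale and was not called. Whether reads were shared between the pair was not tested. Tcp1, whose transcript also matches Acat2 (98.7% over 445 bases), reached 66.8 TPM.

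Hmgcs1 encodes the cytosolic HMG-CoA synthase and was the most abundant of the 8 on both diets. Gramd1c-/- mice had 78.3, 72.3, 93.3, 80.0 and 49.1 TPM on high cholesterol, against 278, 427, 467 and 368 TPM on low cholesterol. Gramd1c+/+ mice had 53.4, 70.4, 75.4, 87.2 and 93.4 TPM on high, against 309, 529.7, 451, 431 and 183 TPM on low cholesterol. The 183 TPM of replicate 5 stood well below the other mice on low cholesterol, yet above all 10 on high cholesterol. The low cholesterol mean was 5.16 times the high cholesterol mean in Gramd1c-/- mice and 5.01 times in Gramd1c+/+ mice. edgeR gave a log2 fold change of -2.40 (SE 0.23, adjusted p = 2.16e-06) in Gramd1c-/- and -2.27 (SE 0.22, adjusted p = 3.23e-06) in Gramd1c+/+ mice.

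Mvk and Pmvk encode the kinases that phosphorylate mevalonate in turn. Mvk ranged over 4.32 to 8.17 TPM on high, against 24.9 to 38.2 TPM on low cholesterol, in Gramd1c-/- mice. The Gramd1c+/+ mice held 6.27 to 9.73 TPM on high, against 25.0 to 36.8 TPM on low cholesterol. The kinases moved by similar amounts. Pmvk ranged over 8.22 to 19.8 TPM on high, against 48.2 to 70.0 TPM on low cholesterol, in Gramd1c-/- mice. Its range in Gramd1c+/+ mice was 14.1 to 19.9 TPM on high, against 48.4 to 68.1 TPM on low cholesterol. No high cholesterol mouse reached a low cholesterol mouse in either gene. The log2 fold changes of Mvk were -2.15 (SE 0.19, edgeR adjusted p = 6.84e-07) in Gramd1c-/- and -1.93 (SE 0.18, adjusted p = 1.80e-06) in Gramd1c+/+ mice. Those of Pmvk were -1.96 (SE 0.19, edgeR adjusted p = 2.33e-06) in Gramd1c-/- and -1.72 (SE 0.18, adjusted p = 9.81e-06) in Gramd1c+/+ mice.

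The start of Mmab, which encodes an adenosyltransferase for cobalamin, lies 209 bases from that of Mvk on the opposite strand, and the genes share no exonic bases. Mmab was also lower on high cholesterol, with log2 fold changes of -1.08 in Gramd1c-/- (edgeR adjusted p = 3.84e-05) and -0.91 in Gramd1c+/+ mice (adjusted p = 2.20e-04). Its levels over all mice were 6.50 to 22.1 TPM. The 300-base window shown for Mvk reaches past the start of Mmab.

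Mvd and Idi1 had the largest log2 fold changes for diet among the 8 genes. Mvd encodes the decarboxylase that makes isopentenyl pyrophosphate. Its levels in Gramd1c-/- mice were 2.03, 2.46, 2.95, 2.06 and 3.19 TPM on high cholesterol, against 14.3, 24.4, 45.8 and 22.5 TPM on low cholesterol. Those in Gramd1c+/+ mice were 1.70, 2.57, 2.505, 2.14 and 1.69 TPM on high, against 17.9, 36.2, 27.0, 39.1 and 16.4 TPM on low cholesterol. Gramd1c-/- replicate 3 on low cholesterol held the highest level and replicate 1 of the same group the lowest of that diet. Mvd had log2 fold changes of -3.42 (SE 0.32, edgeR adjusted p = 1.10e-06) in Gramd1c-/- and -3.60 (SE 0.31, adjusted p = 4.32e-07) in Gramd1c+/+ mice.

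Idi1 encodes the isomerase that converts isopentenyl pyrophosphate to its allylic partner, dimethylallyl pyrophosphate. In Gramd1c-/- mice it was at 2.72, 5.46, 5.08, 4.31 and 1.03 TPM on high cholesterol, against 46.7, 67.4, 83.2 and 68.4 TPM on low cholesterol. In Gramd1c+/+ mice it was at 4.17, 2.56, 2.09, 4.77 and 5.73 TPM on high, against 52.9, 93.6, 81.8, 81.4 and 40.0 TPM on low cholesterol. This was the largest diet effect of the 8 in each genotype, with low cholesterol means 17.9 times the high cholesterol mean in Gramd1c-/- and 18.1 times in Gramd1c+/+ mice. The log2 fold changes from edgeR were -4.21 (SE 0.35, adjusted p = 2.67e-07) in Gramd1c-/- and -4.16 (SE 0.34, adjusted p = 2.18e-07) in Gramd1c+/+ mice. With the Gramd1c-/- mouse of the lowest Idi1 level (replicate 5, high cholesterol) left out, the value in that genotype was -3.98. Its paralog Idi2 had at most 1 count in a mouse and was not tested. Gm13502, identical to the Idi1 transcript over 684 bases, had at most 66 counts in a mouse, and Gm35570, 97.7% identical over 681 bases, at most 102, against up to 4444 counts for Idi1.

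Fdps encodes farnesyl pyrophosphate synthase and closes the route towards squalene. Gramd1c-/- mice had 8.59, 8.26, 10.1, 9.20 and 8.94 TPM on high cholesterol, against 64.9, 84.0, 105 and 77.7 TPM on low cholesterol. Gramd1c+/+ mice had 8.33, 11.2, 16.2, 10.4 and 8.62 TPM on high, against 75.7, 107, 107, 87.6 and 82.9 TPM on low cholesterol. The 5 Gramd1c-/- mice on high cholesterol lay close together, and replicate 3 of the Gramd1c+/+ mice was the high one on that diet. The log2 fold change of Fdps was -3.22 (SE 0.22, edgeR adjusted p = 7.22e-09) in Gramd1c-/- and -2.99 (SE 0.21, adjusted p = 1.50e-08) in Gramd1c+/+ mice, with the smallest p of the 8 in each genotype. The similar transcript Gm3571, 98.9% identical over 1062 bases, had at most 61 counts, and Gm5873 and Gm8163 had at most 13 and 3. Gm43738, a transcript that shares 1124 exonic bases (26.7%) with Fdps, was listed at 0 in every mouse.

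Ggps1 encodes geranylgeranyl pyrophosphate synthase, which extends farnesyl pyrophosphate for protein geranylgeranylation and leaves the sterol route. In Gramd1c-/- mice it was at 4.21, 5.32, 6.04, 5.26 and 5.68 TPM on high cholesterol, against 4.42, 4.03, 4.69 and 5.88 TPM on low cholesterol. In Gramd1c+/+ mice it was at 5.80, 4.72, 2.61, 5.82 and 4.56 TPM on high, against 4.17, 6.61, 3.86, 5.53 and 5.32 TPM on low cholesterol. The diets overlapped in both genotypes. Its log2 fold changes were 0.13 (SE 0.17, edgeR adjusted p = 0.748) in Gramd1c-/- and -0.08 (SE 0.16, adjusted p = 0.913) in Gramd1c+/+ mice, and 0.03 averaged over genotypes with a 95% interval of -0.22 to 0.27. That interval does not reach the change of any of the other members, of which the smallest was Acat2 at -1.13 with an interval of -1.33 to -0.93. Ggps1 shares 170 exonic bases (7.18% of its exonic length) with Arid4b on the opposite strand, and Arid4b was at 1.59 to 5.76 TPM with no diet call (0.47 averaged over genotypes, edgeR adjusted p = 0.111). The strand setting of the counting is not known here, so reads in the shared stretch cannot be told apart.

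**Figure D2:**
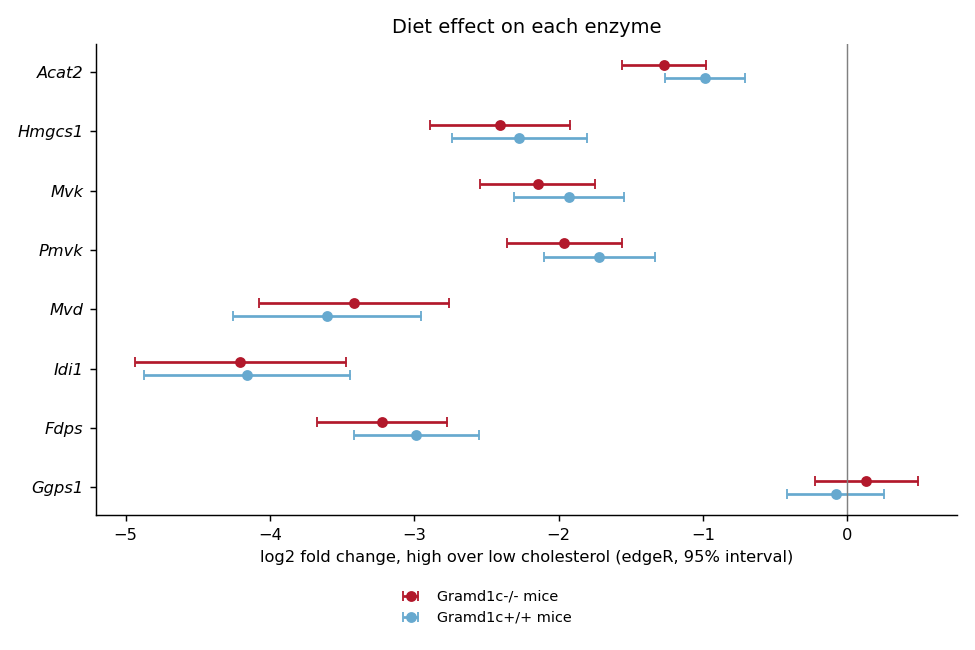
Log2 fold change of each gene, high over low cholesterol, with its 95% interval from edgeR (horizontal axis), in Gramd1c-/- (dark red) and Gramd1c+/+ mice (light blue). The intervals of 7 genes lie below 0 in both genotypes, from Acat2 at -1.27 and -0.99 to Idi1 at -4.21 and -4.16, and those of Ggps1 span 0.

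The order of the members by TPM differed between the diets. This order, and the ratio of Fdps to Ggps1 below, rest on the annotated exonic lengths. That of Fdps is 4208 bases, of which 1124 are shared with Gm43738 (0 TPM in every mouse). How reads in the shared stretch were counted is not known here. On high cholesterol the means ran from Hmgcs1 at 75.3 ± 14.99 TPM through Acat2 at 28.5 ± 4.33, Pmvk at 16.3 ± 3.47, Fdps at 9.99 ± 2.40, Mvk at 7.52 ± 1.61, Ggps1 at 5.001 ± 1.03 and Idi1 at 3.79 ± 1.59 to Mvd at 2.33 ± 0.50 TPM (SD, n = 10). On low cholesterol they ran from Hmgcs1 at 383 ± 108 TPM through Fdps at 88.1 ± 15.3, Idi1 at 68.4 ± 18.4, Acat2 at 62.6 ± 8.46, Pmvk at 58.6 ± 8.85, Mvk at 31.2 ± 5.19 and Mvd at 27.1 ± 10.99 to Ggps1 at 4.95 ± 0.94 TPM (SD, n = 9). Idi1 stood above only Mvd on high cholesterol and below only Hmgcs1 and Fdps on low cholesterol. Not all neighbours in these orders were apart. On low cholesterol Idi1 exceeded Acat2 in 5 of 9 mice, and Acat2 exceeded Pmvk and Mvk exceeded Mvd in 7 of 9. On high cholesterol Ggps1 exceeded Idi1 in 8 of 10 mice and Idi1 exceeded Mvd in 7 of 10.

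The ratio between transcripts of the synthases that make and extend farnesyl pyrophosphate shifted with the diet. Ggps1 had no diet call, so the shift largely restates the fall of Fdps. The ratio of Fdps to Ggps1 TPM was 1.55 to 2.04 on high, against 13.2 to 22.4 on low cholesterol, in Gramd1c-/- mice. For Gramd1c+/+ mice it was 1.44 to 6.20 on high, against 15.6 to 27.8 on low cholesterol. The highest ratio on high cholesterol, in replicate 3 of the Gramd1c+/+ mice, came with the highest Fdps and the lowest Ggps1 level of that diet.

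Loss of Gramd1c was not accompanied by a call in any of the 8 genes. On high cholesterol 0 of 8 were called between Gramd1c-/- and Gramd1c+/+ mice, where 0.00666% of all genes were called, and on low cholesterol 0 of 8, also against 0.00666%. Averaged over diets the count was again 0 of 8, against 0.00666%, which in each comparison is the Gramd1c gene alone. The smallest unadjusted p of a member over these comparisons was 0.0600 in edgeR, for Fdps on high cholesterol, and DESeq2 and limma called 0 of 8 as well. Over all genes 364 had an unadjusted p below 0.05 on high cholesterol and 400 on low cholesterol. The median log2 fold change of the 8 genes was -0.16 on high and -0.04 on low cholesterol, against 0.01 and 0.00 for all genes.

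Fdps averaged 9.03 TPM in Gramd1c-/- and 10.96 TPM in Gramd1c+/+ mice on high cholesterol (means, n = 5 each), with the 2 groups overlapping. Its log2 fold change between genotypes was -0.39 there (95% interval -0.80 to 0.02, edgeR adjusted p = 1.0), and -0.12 without replicate 3 of the Gramd1c+/+ mice. Mvk followed with -0.32 (-0.70 to 0.05), then Pmvk with -0.23 (-0.61 to 0.14) and Acat2 with -0.20 (-0.48 to 0.07). Mvd was at 0.17 (-0.47 to 0.81), Ggps1 at 0.12 (-0.22 to 0.46), Idi1 at -0.11 (-0.77 to 0.54) and Hmgcs1 at -0.10 (-0.55 to 0.34). On low cholesterol the 8 values lay between -0.15 for Fdps (-0.58 to 0.27) and 0.08 for Acat2 (-0.21 to 0.37). The intervals were widest for Idi1, at -0.72 to 0.59 on low cholesterol. Without both libraries that stood apart, Idi1 on high cholesterol was at 0.12, Pmvk at -0.09, Mvd at 0.04, Hmgcs1 at -0.01, Mvk at -0.21, Acat2 at -0.13, Ggps1 at 0.06 and Fdps at -0.42, and no member was called on either diet. Genotype differences inside these intervals were not detectable with 4 or 5 mice in a group.

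No difference in diet effect between the genotypes was detectable. The interaction (the log2 fold change for diet of Gramd1c-/- mice less that of Gramd1c+/+ mice) was called in 0 of 8 members, where 0.0% of all genes were called by edgeR. DESeq2 and limma called no gene either, and 250 of 15016 genes had an unadjusted p below 0.05 in edgeR. The log2 differences were -0.28 for Acat2 (95% interval -0.68 to 0.12), -0.24 for Pmvk (-0.79 to 0.30), -0.24 for Fdps (-0.82 to 0.35), -0.22 for Mvk (-0.75 to 0.32) and -0.13 for Hmgcs1 (-0.78 to 0.52). For Idi1 the difference was -0.04 (-0.97 to 0.88), for Mvd 0.19 (-0.69 to 1.06) and for Ggps1 0.21 (-0.28 to 0.71). Without both libraries that stood apart, Idi1 was at 0.12, Mvd at -0.01, Pmvk at -0.07, Mvk at -0.11 and Ggps1 at 0.10, again with no call.

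**Figure D3:**
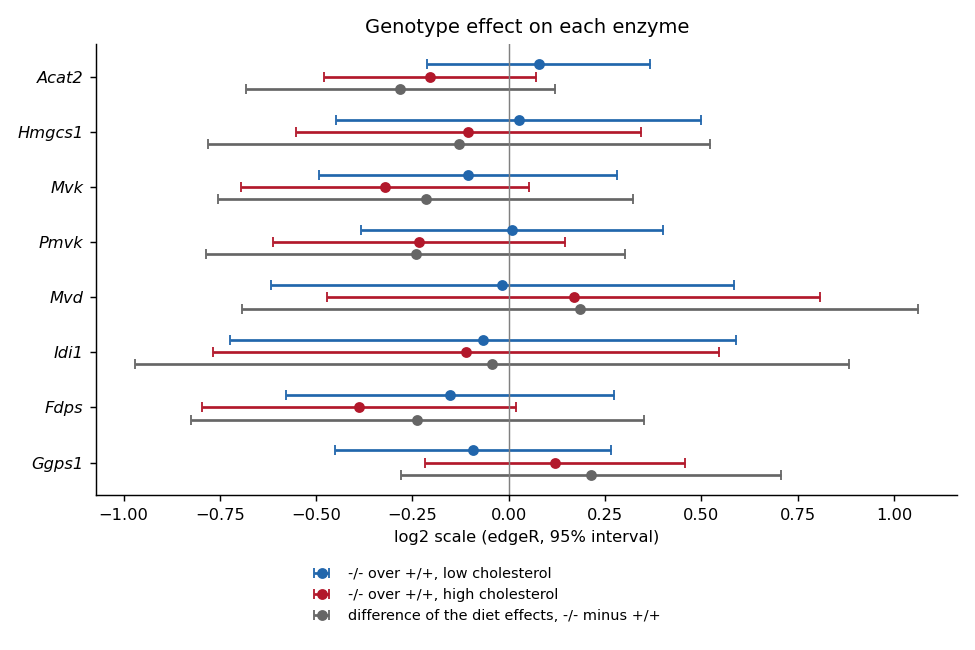
Log2 fold change of each gene, Gramd1c-/- over Gramd1c+/+, on low (blue) and high (red) cholesterol, and the interaction, the diet log2 fold change of Gramd1c-/- less that of Gramd1c+/+ mice (grey), each with its 95% interval from edgeR (horizontal axis). All 24 intervals contain 0, and the point farthest from it is Fdps on high cholesterol at -0.39.

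Single mice ran high or low in several members at once, most visibly on low cholesterol. On the log2 CPM scale, Gramd1c-/- replicate 3 on low cholesterol was above its group mean in 7 of the 7 genes other than Ggps1, by 0.29 to 0.92. Replicates 1 and 4 of that group were below the mean in all 7. Among Gramd1c+/+ mice on low cholesterol, replicate 3 was above the mean in 7 of 7, and replicate 5 deviated by -0.93 in Hmgcs1, -0.71 in Idi1 and -0.61 in Mvd but by 0.26 in Pmvk. Replicate 2 of this group, the library with adrenal transcripts, was above the mean in 6 of 7, by at most 0.38. On high cholesterol the members of a single mouse did not always move together. Replicate 5 of the Gramd1c-/- mice was low in Idi1 (-1.48), Pmvk (-0.73), Mvk (-0.52) and Hmgcs1 (-0.45) and high in Mvd (0.46). Replicate 3 of the Gramd1c+/+ mice was high in Fdps (0.83) and low in Idi1 (-0.56) and Ggps1 (-0.56).

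**Figure D4:**
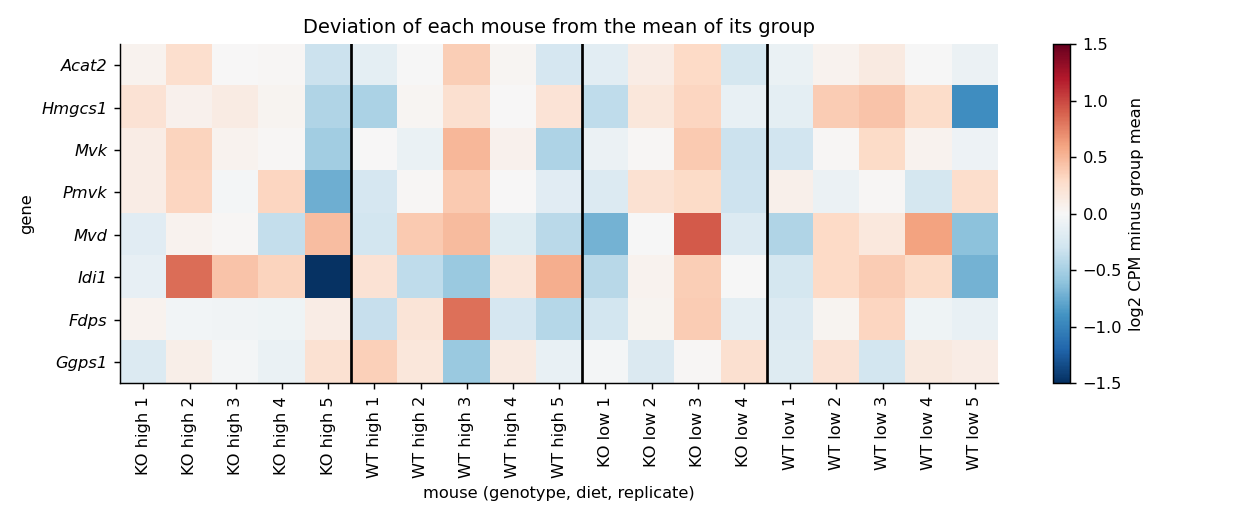
Deviation of each mouse (columns, named by genotype, diet and replicate) from the mean of its group for each gene (rows), in log2 CPM; red is above and blue below the mean, and vertical lines part the groups. Replicate 3 of the KO mice on low cholesterol is above its mean in all 7 genes other than Ggps1, and replicate 5 of the KO mice on high cholesterol is farthest below in Idi1, at -1.48.

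As a description over 19 mice, Pearson's r between these deviations had a median of 0.45 over the 21 pairs of the 7 genes, from -0.22 for Idi1 and Fdps to 0.94 for Acat2 and Mvk, with 19 pairs positive. The 7 pairs with Ggps1 had a median of -0.42. Members of a mouse share a library and its scaling, and the group means were removed. Within the 9 mice on low cholesterol the median over the 21 pairs was 0.65, and r for Hmgcs1 and Idi1 was 0.97. Within the 10 mice on high cholesterol the median was 0.41, and Mvd and Idi1 stood at -0.71 there, against 0.88 on low cholesterol. In a comparison chosen after seeing the data, both libraries that stood apart were left out and group means were taken anew. The median of the 21 pairs was then 0.50 over 17 mice, 0.47 over 9 mice on high and 0.67 over 8 mice on low cholesterol. Several pairs on high cholesterol changed sign, where only Gramd1c-/- replicate 5 is left out. For Idi1, r with Pmvk was -0.44 with 9 mice and 0.53 with 10, with Acat2 -0.46 and 0.26, with Mvk -0.46 and 0.31, and with Hmgcs1 -0.31 and 0.41. For Mvd, r with Pmvk was 0.59 with 9 mice and -0.12 with 10, and with Hmgcs1 0.34 and -0.11. Mvd and Idi1 were at -0.60 with 9 mice, the sign they had with 10.

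The genes whose pattern over the 19 mice was most like that of each member were sought by the root mean square difference of log2 CPM, each gene centred on its own mean, over all tested genes outside the list. This distance keeps the diet shift, so it partly restates the diet effects given above. For Acat2 the nearest were Sc5d, a late sterol desaturase (0.19), and Acsl3, an acyl-CoA synthetase (0.20). Rdh11, a retinol dehydrogenase, was nearest to Mvk (0.24), Pmvk (0.25) and Hmgcs1 (0.30). The second places went to Fdft1, the squalene synthase, for Mvk (0.24), to the aldolase gene Aldoc for Pmvk (0.30) and to Lss, the lanosterol synthase, for Hmgcs1 (0.32). Fdps was nearest to Msmo1 (0.20) and Cyp51 (0.24), both enzymes of lanosterol demethylation, and Mvd to the same genes in the other order (0.33 for Cyp51 and 0.43 for Msmo1). For Idi1 the nearest were Gm13502, the identical stretch named above (0.50), and Sqle, the squalene epoxidase (0.57). Ggps1 stood by itself among the members, of which the nearest to it, Acat2, was at 0.68. Its nearest genes were Hdhd5 (0.127) and Pank4, a member of the pantothenate kinase family (0.132), and the gene at rank 6 was at 0.137. Genes that vary little lie close together on this distance, so these genes need not rise and fall with Ggps1.

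Most genes of the later steps of sterol synthesis fell as well. Of 13 genes from squalene synthesis to cholesterol, 11 were called lower in each genotype and 12 averaged over genotypes. Of all genes, 0.293% were called lower in Gramd1c-/- mice, 0.34% in Gramd1c+/+ mice and 0.852% averaged over genotypes. The medians of the 13 were -1.81 in Gramd1c-/- and -1.72 in Gramd1c+/+ mice. The 4 with the smallest p were Cyp51 at -3.35, Sqle at -4.53, Nsdhl, a sterol dehydrogenase, at -2.91 and Msmo1 at -3.19 (log2, averaged over genotypes, edgeR). Ebp, a sterol isomerase named after its value was seen, was not called (-0.30, adjusted p = 0.174). Idi1 and Sqle were the only genes of both lists with a change beyond -4 on this scale.

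Enzymes that use farnesyl or geranylgeranyl pyrophosphate outside sterol synthesis were called in 1 case. Of 17 such genes, for protein prenylation and processing, ubiquinone, dolichol and tRNA modification, 0 were called within a genotype by edgeR. Of all genes, 0.326% were called in either direction in Gramd1c-/- and 0.44% in Gramd1c+/+ mice. Averaged over genotypes, where 0.852% of all genes were called lower, 1 of the 17 was called lower. This was Dhdds, a subunit of the enzyme that builds dolichol chains, at -0.34 (adjusted p = 0.042). Zmpste24, a protease of prenylated proteins, had -0.41 (edgeR adjusted p = 0.130) and Nus1, the partner of Dhdds, -0.18 (adjusted p = 0.280). The median of the 17 was -0.16, and Ggps1 at 0.03 lay within their range of -0.41 to 0.16.

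On the supply side, 6 genes of acetyl-CoA and ketone body reactions were examined. Acss2, the cytosolic acetyl-CoA synthetase, was lower on high cholesterol in both genotypes, at -1.58 in Gramd1c-/- and -1.64 in Gramd1c+/+ mice. Acly, the ATP citrate lyase, was called lower in Gramd1c-/- mice (-1.38, edgeR adjusted p = 0.047) and not in Gramd1c+/+ mice (-1.12, adjusted p = 0.136) (the interaction was called for no gene). Averaged over genotypes 2 of the 6 were called lower, against 0.852% of all genes. Bdh1 (-0.19) and Aacs (-0.34), of ketone body metabolism, were not called. The thiolase paralogs Acat1 and Acat3 were not called in any comparison by edgeR.

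**Figure D5:**
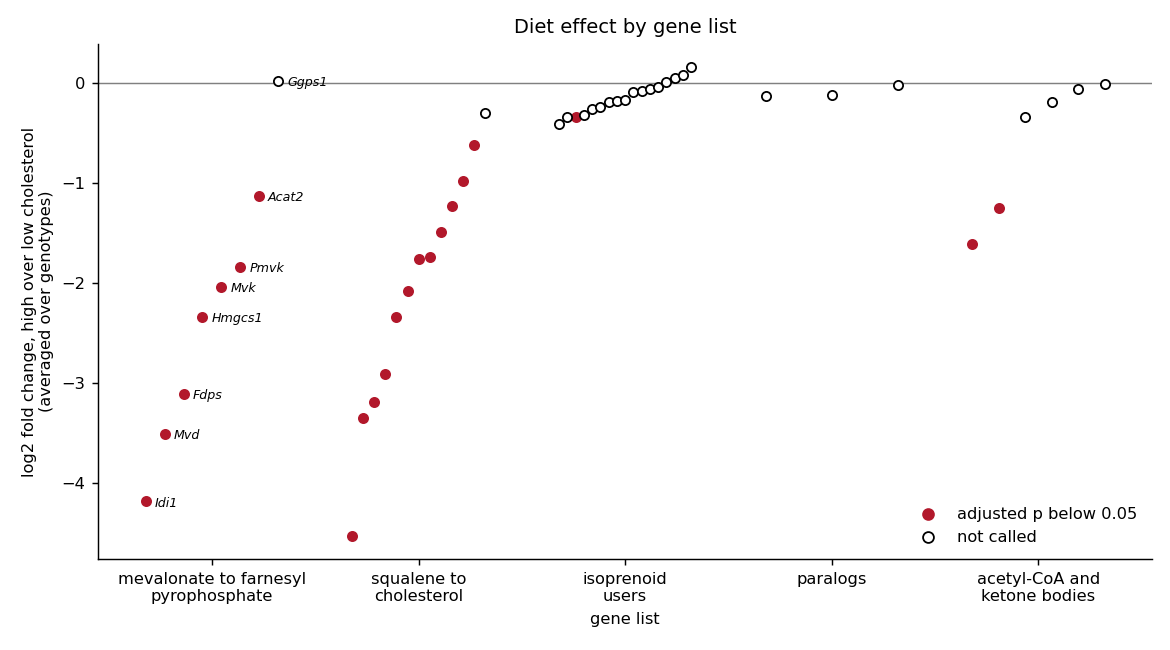
Log2 fold change, high over low cholesterol averaged over genotypes (vertical axis), of each tested gene of 5 lists (horizontal axis), with genes at an edgeR adjusted p below 0.05 in red and the others open. The enzymes before and after squalene reach -4.18 (Idi1) and -4.53, whereas the 17 users of isoprenoids lie between -0.41 and 0.16, where Ggps1 also lies.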

How the data were processed

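Each mouse has a table in which the authors deposited whole-number counts for Ensembl genes, without normalization, beside gene positions and lengths. The RNA was poly(A)-selected and the libraries were made with the NEBNext Ultra kit per the labels, and the submitters' processing notes name STAR 2.5.2b and GRCm38. Which program counted the reads, with which strand rule and gene release, and how multi-mapped reads were treated, is not given in the sources used here, and this bears on Acat2, Fdps and Idi1, which have near-identical copies. Of the 49315 identifiers 48970 were paired with a symbol from GENCODE M21 or the name table. The test was that of edgeR 4.0.16 under R 4.3.3 (TMM, filterByExpr with a minimum count of 10, a model of 4 group means over 19 mice, quasi-likelihood F test). P-values were adjusted by the Benjamini-Hochberg method over the 15016 genes tested. Intervals are 95%. The procedure was checked on simulated counts. TPM was computed from counts and exonic lengths. Transcripts with at least 95% identity over 150 bases were found with blastn 2.17.0, and promoters were RefSeq's. The 8 genes and the other lists were chosen with earlier results of these data known. Named were all 8 genes, up to 4 genes of each further list with the smallest p for diet averaged over genotypes, the 2 genes nearest each member in pattern, and genes that overlap a member or start within 5 kb of its start, of which Gm15946, Gm20388 and Gm22935 were too low to test. Alternatives were DESeq2 1.42.0, RLE scaling, no filter, a stricter filter (CPM of 1 in 4 mice), the groups compared alone, the replicate number as a block, a term for the run of animal numbers, limma 3.58.1 on log2(TPM + 1) and log2(TPM + 0.1), CPM in place of TPM, each mouse left out in turn, and 2 libraries left out together. The animal number is the integer that heads the counts of each mouse, read here as such. A cut made in these numbers here gave 2 runs, and whether they mark a batch was not tested. Libraries came from separate mice, and no pair of libraries from the same group agreed within sampling noise. Pairs from different groups were not checked in this way. Some genes of these lists are not reported here.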

Additional observations from a re-analysis of the deposited data

How the results depend on the processing

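The 7 genes called lower on high cholesterol were called lower, and no member was called higher, under every alternative run, with the largest adjusted p of the 7 at 0.00208 in Gramd1c-/- and 0.00154 in Gramd1c+/+ mice. No member was called for genotype or interaction under any of them (smallest adjusted p = 0.815, Fdps on low cholesterol with the groups compared alone). Counts over all genes moved more. With DESeq2, 83 genes in place of 51 were lower for diet in Gramd1c+/+ mice, and averaged over genotypes 295 were lower and 303 higher, in place of 128 and 67. The count of higher genes varied most: 5 for diet in Gramd1c-/- mice (2 to 28 over the other settings, 1 to 11 with a mouse left out), 15 in Gramd1c+/+ mice (6 to 28, and 2 to 20), and 67 averaged over genotypes (29 to 140 with a mouse left out, 35 with the replicate block). The causes were not tested.

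Small uncalled genotype values changed sign. On low cholesterol Hmgcs1 (0.03) was at -0.032 with the replicate block and -0.00451 with the animal number run as a term. Pmvk (0.01) was at -0.00903 without a filter, -0.060 with the replicate block, -0.0105 with the number run, -0.00261 on log2(TPM + 1), -0.00283 on log2(TPM + 0.1), -0.00593 with the groups compared alone, and -0.016 without both libraries that stood apart. Mvd (-0.02) was at 0.0066 with the number run and 0.049 without both libraries, and Idi1 (-0.07) at 0.000393 without both. On high cholesterol Idi1 (-0.11) was at 0.116 without both. Averaged over diets Hmgcs1 (-0.04) was at 0.025 on either TPM scale and 0.052 without both, and Idi1 (-0.09) at 0.058 without both. For the interaction Mvd (0.19) was at -0.013 and Idi1 (-0.04) at 0.116 without both. Same-numbered mice of different groups did not deviate together (mean r -0.069 over 27 pairs, 0.017 over 108 other pairs), so the numbers were not read as pairs, and with the replicate block the same count of 7 members was called lower in each diet comparison.

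With each mouse left out in turn, values that crossed 0, none of them called, ranged as follows. Ggps1 ranged from -0.18 to 0.029 for diet in Gramd1c+/+ mice, from -0.021 to 0.087 for diet averaged over genotypes and from -0.048 to 0.062 for genotype averaged over diets. For genotype on low cholesterol Acat2 ranged from -0.033 to 0.16, Hmgcs1 from -0.15 to 0.14, Pmvk from -0.094 to 0.11, Mvd from -0.42 to 0.18 and Idi1 from -0.21 to 0.055. Idi1 on high cholesterol ranged from -0.32 to 0.12. Averaged over diets Hmgcs1 ranged from -0.13 to 0.02, Mvd from -0.13 to 0.18 and Idi1 from -0.20 to 0.024. For the interaction Hmgcs1 ranged from -0.24 to 0.041, Mvd from -0.014 to 0.59, Idi1 from -0.24 to 0.18 and Fdps from -0.34 to 0.054. The lowest counts of a member in a mouse were 42 for Mvd, 50 for Idi1 and 93 for Ggps1, and how far counting error adds to their spread was not tested.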
